A study of Homo sapiens with 4 samples.

Results

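Integrins are the receptors by which epithelial cells hold on to the extracellular matrix. Each receptor pairs an alpha subunit, which largely sets the ligand, with a beta subunit, whose tail binds the adaptors that lead to the cytoskeleton. Colon epithelium uses a limited set: receptors for collagen, for the laminins of the basement membrane, and for ligands carrying the motif Arg-Gly-Asp (RGD), such as fibronectin, vitronectin and the latent form of TGF-beta. The transcripts of 10 such subunits were followed here, namely ITGA1, ITGA2, ITGA3, ITGA5, ITGA6, ITGAV, ITGB1, ITGB4, ITGB5 and ITGB6, out of 61544 genes counted. They were chosen by gene symbol, matched to the Ensembl identifiers of the count table, and all 10 were found.

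The study sequenced RNA of HT29 and HCT116, human epithelial cell lines from colorectal cancers, to compare 2 lines that differ in glucocorticoid receptor level in their response to lipopolysaccharide (LPS), a lipid of the outer membrane of Gram-negative bacteria. Each line gave 1 control library and 1 library after LPS at 1 ug/mL for 24 h, 4 libraries in all. Both lines grew in the same serum-containing medium, and no condition had a repeat culture. The comparison of the lines therefore rests on 2 libraries a line that differ in treatment, and each line is a single cancer line rather than normal colon epithelium.

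The libraries held 19105058 to 21268959 counts, so that 3 counts, the floor used below for a gene at 0, correspond to 0.141 to 0.157 CPM (counts scaled to the library total). Of the epithelial markers, the keratins KRT8, KRT18 and KRT19 and the adhesion gene EPCAM were the most abundant per length, with at least 4155 counts in every library. Among those picked with their values in view, the colon differentiation keratin KRT20 was at 0 in all 4, the brush border gene VIL1 had 4 and 0 counts in HCT116, and the intestinal transcription factor CDX2 had 18 and 39 counts in HT29. Of 11 markers of fibroblasts, endothelium and leukocytes, 2 passed the filter on low values. The most abundant per length were CD14, with 140 counts at most, PECAM1 with 39, LUM with 14 and CD79A with 5. Also picked with their values in view, VWF had 39 and 35 counts in HCT116 and PDGFRB 22 and 33. DCN, CDH5 and CD3E, picked in the same way, were at 0 in every library. Of the genes used to check the response to LPS, the log2 ratio of LPS over control was 2.27 for CXCL1, 1.14 for CXCL8, 1.26 for ICAM1 and -0.18 for NFKBIA in HT29. CXCL1, a chemokine gene, had 97 and then 521 counts there, against 19 and 7 in HCT116. In HCT116, 3 of the 5 check genes reached a mean of 1 CPM, and 0 of them had a log2 ratio above 0.58. ICAM1 had a log2 ratio of 0.0099 in that line and NFKBIA 0.085, while CXCL8 had 15 counts in the control and 4 with LPS. Mitochondrial transcripts took 3.75% of the HT29 control, 4.29% after LPS in that line, 5.01% of the HCT116 control and 7.16% after LPS there.

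The largest differences lay between the lines, not between LPS and control. HT29 held ITGB6 and ITGA1, which HCT116 held only in traces, and HCT116 held ITGA5, which HT29 all but lacked. ITGA6, ITGB5, ITGB1, ITGAV and ITGA2 were lower in HCT116 by smaller factors. ITGA3 and ITGB4 were at close to equal levels in both lines. By edgeR's quasi-likelihood test over 14516 genes, with Benjamini-Hochberg adjustment at 0.05, 8 of the 10 genes differed between the lines, 7 lower and 1 higher in HCT116, and DESeq2 called 8 as well. These lines differ widely, and the same test called 76.6% of all genes tested, 38.0% as lower in HCT116 and 38.6% as higher, and DESeq2 called 70.0%. The fold change passed 2 on the log2 scale in 4 of the 10 genes, against 21.2% of all genes, and passed 4 in 3 of the 10, against 11.1%. The median of the 10 log2 fold changes was -1.26, beside 0.016 over all genes.

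Levels are given per length as TPM (length-scaled shares of the library), computed from the counts and the exon length in the table, so that subunits can be set side by side. In the HT29 control the order was ITGA6 (341 TPM), ITGB4 (275), ITGB5 (261), ITGA3 (153), ITGB1 (150), ITGAV (68.4), ITGA2 (44.8), ITGB6 (20.2), ITGA1 (6.25) and ITGA5 (0). In the HCT116 control it was ITGB4 (332 TPM), ITGA3 (175), ITGB5 (89.3), ITGB1 (63.1), ITGA6 (60.3), ITGA5 (46.4), ITGAV (40.0), ITGA2 (29.7), ITGA1 (0.403) and ITGB6 (0.309). The neighbours ITGA3 and ITGB1 in HT29 had overlapping 95% counting intervals, and so had ITGB1 and ITGA6, and ITGA1 and ITGB6, in HCT116. These orders depend on the length used. With the longest transcript in place of all exons, ITGB1 stood at 289 TPM in the HT29 control, 311 in HT29 after LPS and 125 in the HCT116 control, and moved from the fifth to the second place in the HT29 control and to the first after LPS.

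**Figure D1:**
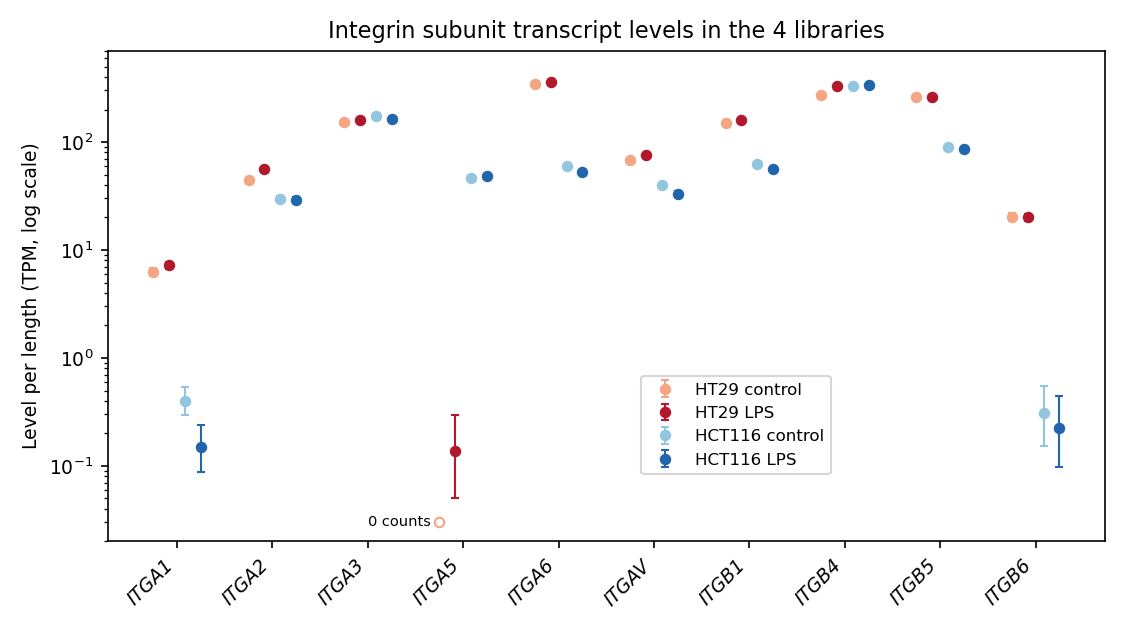
Transcript level (TPM, log axis) of each subunit in the 4 libraries, with each point 1 library, bars for the 95% Poisson interval of its count, and an open circle for 0 counts. ITGA1 and ITGB6 are higher in both HT29 libraries than in both HCT116 libraries, though low among the subunits of HT29. ITGA5 is higher in both HCT116 libraries, and ITGA3 and ITGB4 each lie at close levels in all 4.

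Promoter windows from RefSeq (GRCh38.p14) were found for 8 of the 10 genes. Those of the 3 genes with the largest differences between the lines are printed here, 5′ to 3′ on the gene's strand, from 250 bases before the annotated start to 30 bases from it on. Capitals mark matches on either strand to the Sp1 box (GGGCGG), the AP-1 site (TGANTCA), the TATA box (TATAAA) or the NF-kB motif.
ITGA5, chr12:54419237-54419516, minus strand: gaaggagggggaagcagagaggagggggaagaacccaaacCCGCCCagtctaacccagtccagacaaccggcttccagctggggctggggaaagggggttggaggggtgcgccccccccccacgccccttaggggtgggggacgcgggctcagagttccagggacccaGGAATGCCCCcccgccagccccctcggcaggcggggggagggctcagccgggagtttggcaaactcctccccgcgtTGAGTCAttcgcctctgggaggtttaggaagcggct
ITGB6, chr2:160200243-160200522, minus strand: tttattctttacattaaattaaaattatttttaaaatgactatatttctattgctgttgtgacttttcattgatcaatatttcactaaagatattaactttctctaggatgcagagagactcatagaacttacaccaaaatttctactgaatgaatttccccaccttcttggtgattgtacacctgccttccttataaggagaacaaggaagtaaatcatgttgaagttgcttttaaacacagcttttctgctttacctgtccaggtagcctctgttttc
ITGA1, chr5:52787666-52787945, plus strand: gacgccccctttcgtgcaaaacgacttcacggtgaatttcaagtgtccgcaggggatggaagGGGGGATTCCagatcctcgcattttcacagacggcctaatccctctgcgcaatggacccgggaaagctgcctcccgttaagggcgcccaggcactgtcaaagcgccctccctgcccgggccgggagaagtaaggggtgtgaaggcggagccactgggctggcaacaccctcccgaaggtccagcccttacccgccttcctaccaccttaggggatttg
The ITGA5 window was 68.6% G and C, with 14 CpG, and held a Sp1 box, a match to the NF-kB motif and an AP-1 match spanning the start. The ITGB6 window was 32.1% G and C and held no CpG and none of the 4 motifs. The ITGA1 window was 61.4% G and C, with 17 CpG, and held 1 NF-kB match. Among all 35116 windows of this length the median was 58.2% G and C and 13 CpG, and 4.71% had no CpG. The Sp1 box was found in 44.1% of them, the AP-1 site in 7.35%, the TATA box in 11.2% and the NF-kB motif in 5.6%. A match says only that these letters are present.

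ITGA1 and ITGA2 encode the alpha subunits of the collagen receptors, and lie next to each other on chromosome 5 (ITGA1 at chr5:52787916-52959209, ITGA2 at chr5:52989340-53094779, hg38, both on the plus strand), 30130 bp apart. ITGA1 had 626 (control) and 792 (LPS) counts in HT29, against 46 (control) and 17 (LPS) in HCT116. Both HT29 libraries were far above both HCT116 libraries, with no overlap. ITGA1 was 17.0-fold higher in HT29 between the control libraries, with a 95% counting interval of 12.6 to 23.6, and 48.8-fold between the LPS libraries (30.1 to 83.8). The fitted log2 fold change of HCT116 over HT29 was -4.70 (SE 0.24, edgeR adjusted p = 4.08e-13). The first ITGA1 exons share 499 bp with PELO, a ribosome rescue gene on the same strand, which is 2.69% of the exon length of ITGA1, and PELO had 870 to 1228 counts, so reads in that stretch cannot be told apart, and their part in the ITGA1 counts was not tested.

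ITGA2, the other collagen receptor alpha subunit, had 1909 and 2630 counts in HT29 against 1443 and 1407 in HCT116. It was lower in both HCT116 libraries, and its log2 fold change was -0.85 (SE 0.075, edgeR adjusted p = 2.58e-09), smaller than that of its neighbour. The summed TPM of these collagen alpha subunits was 51.0 and 63.6 in HT29 and 30.1 and 29.4 in HCT116, and ITGA2 made up most of it in every library.

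ITGA3, ITGA6 and ITGB4 belong to the laminin receptors. ITGA3 pairs with ITGB1, ITGA6 with either ITGB1 or ITGB4, and ITGB4 with ITGA6 alone, as the receptor of hemidesmosomes. ITGA6 (chr2:172427354-172506459) had 12293 and 14231 counts in HT29 against 2476 and 2155 in HCT116. The groups did not overlap, and ITGA6 was 6.21-fold higher in HT29 between the controls and 6.92-fold between the LPS libraries (fitted log2 fold change -2.71, SE 0.073, edgeR adjusted p = 1.22e-17).

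ITGB4 (chr17:75721328-75757818) had 10050 and 13279 counts in HT29 against 13799 and 13794 in HCT116, and the TPM of the HT29 library with LPS (332) equalled that of the HCT116 control (332). ITGA3 (chr17:50055968-50090481) had 8077 and 9311 counts in HT29 against 10551 and 9876 in HCT116. Neither gene passed the test, with log2 fold changes of 0.06 for ITGB4 (SE 0.07, edgeR adjusted p = 0.426) and 0.04 for ITGA3 (SE 0.067, adjusted p = 0.577). Between the control libraries alone the log2 ratio of ITGB4 was 0.13 (95% counting interval 0.093 to 0.17), and between the LPS libraries it was -0.0051 (-0.04 to 0.029). With library size alone as the scaling, both genes were called as higher in HCT116, ITGA3 by 0.19 (adjusted p = 0.0149) and ITGB4 by 0.21 (adjusted p = 0.0123), and the median of all genes then moved from 0.016 to 0.17.

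HT29 thus held more ITGA6 per length than ITGB4 in both libraries (341 against 275 TPM in the control, 361 against 332 with LPS). HCT116 held less ITGA6 than ITGB4 (60.3 against 332 TPM in the control, 53.0 against 335 with LPS). The summed TPM of the laminin alpha subunits ITGA3 and ITGA6 was 493 and 522 in HT29 and 235 and 218 in HCT116.

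ITGA5, ITGAV, ITGB5 and ITGB6 form the receptors for RGD ligands. ITGA5 pairs with ITGB1 as the main fibronectin receptor, and ITGB6, with ITGAV, makes an epithelial receptor that binds and activates latent TGF-beta. ITGA5 (chr12:54395261-54419266, minus strand) was at 0 counts in HT29 without LPS and at 6 with it, against 2107 and 2180 in HCT116. It stood alone among the 10 in being higher in HCT116 and called. With the HT29 control set to the floor of 3 counts, ITGA5 was 562-fold higher in HCT116 between the controls. The 95% counting interval of that log2 ratio started at 8.83, which is below this fold, and had no upper end. Between the LPS libraries ITGA5 was 347-fold higher (95% counting interval 160 to 951). The fitted log2 fold change was 9.24 (SE 0.23, edgeR adjusted p = 3.87e-18, DESeq2 adjusted p = 3.5e-07), a value that rests on 6 counts in HT29. On the log2 scale the counting interval between the LPS libraries ran from 7.32 to 9.89. That is wider than this SE allows, so the SE understates the counting error here.

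ITGB6 (chr2:160099667-160200313, minus strand) had 632 and 688 counts in HT29 against 11 and 8 in HCT116. The lines were apart in the opposite direction to ITGA5. ITGB6 was 71.8-fold higher in HT29 between the controls (95% counting interval 40.0 to 145) and 90.1-fold between the LPS libraries (45.2 to 208), with a fitted log2 fold change of HCT116 over HT29 of -6.29 (SE 0.23, edgeR adjusted p = 1.97e-15). A lncRNA that overlaps 16.7% of its exon length had at most 2 counts in any library.

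ITGAV and ITGB5, which pair as a vitronectin receptor, were present in both lines. ITGAV (chr2:186590010-186680901) had 3039 and 3704 counts in HT29 against 2023 and 1666 in HCT116, a log2 fold change of -1.06 (SE 0.075, edgeR adjusted p = 7.8e-11). ITGB5 (chr3:124761948-124901418) had 9197 and 9976 counts in HT29 against 3577 and 3393 in HCT116, a log2 fold change of -1.65 (SE 0.067, adjusted p = 9.36e-15). For both genes the libraries of the lines did not overlap. The exon length of ITGAV is 8220 in the count table and 19336 in GENCODE 44, so its TPM depends on the length used. The length itself cancels in the fold change, but whether the other exons would change the counts was not tested.

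The RGD alpha subunits summed to 68.4 and 76.4 TPM in HT29, nearly all ITGAV, and to 86.4 and 81.7 TPM in HCT116, of which ITGA5 was the larger share in both libraries. ITGB5 and ITGB6, which both pair with ITGAV, summed to 282 and 279 TPM in HT29 and to 89.6 and 85.7 TPM in HCT116.

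ITGB1 is the common beta subunit and can pair with all 6 of the alpha subunits followed here. ITGB1 (chr10:32887273-33005792, minus strand) had 11778 and 13752 counts in HT29 against 5650 and 4980 in HCT116, with no overlap between the lines, and a log2 fold change of -1.46 (SE 0.07, edgeR adjusted p = 1.42e-13). The processed pseudogene ITGB1P1 on chromosome 19 matches an ITGB1 transcript at 99.8% identity over 28.3% of its length, and had 2302, 2677, 1109 and 906 counts in the same library order, which is 15.4% to 16.4% of the counts of both. With its counts added to ITGB1, a step chosen after the data were seen, the log2 fold change was again -1.46 (SE 0.071, adjusted p = 2.8e-13). The alpha subunits together came to 613 and 662 TPM in HT29 and 352 and 330 TPM in HCT116, and the 4 beta subunits to 706 and 772 against 485 and 477 TPM. In bulk RNA, fewer cells of a kind and less RNA per cell cannot be told apart.

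**Figure D2:**
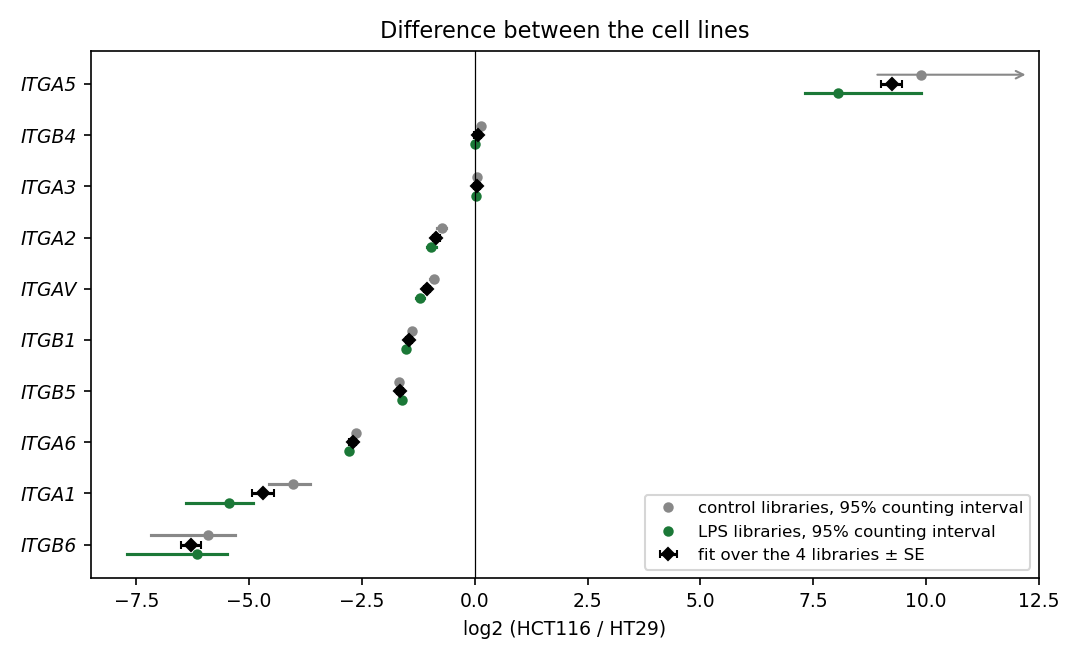
Log2 ratio of HCT116 over HT29 for each subunit, between the control libraries (grey) and between the LPS libraries (green) with 95% counting intervals. Diamonds give the fit over the 4 libraries, with bars for the SE derived from its test. The arrow for ITGA5 marks an interval with no upper end, since the HT29 control had 0 counts; ITGA5 lies far to the right, and ITGB6 and ITGA1 far to the left.

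The LPS libraries differed little from their controls in these transcripts. In HT29, where 9 of the 10 genes were measured (mean of at least 1 CPM in the line), none had a log2 ratio of LPS over control beyond 0.58 in either direction, against 6.2% of 13201 genes, 3.5% above and 2.7% below. Their median log2 ratio was 0.085, beside -0.0076 over all genes. The 95% counting interval lay above 0 in 7 of the 9, against 15.9% of all genes, and below 0 in none, against 18.5%, but genes with many counts have narrow intervals, and the ratios were small. The 2 largest were ITGA2, with a log2 ratio of 0.32 (0.24 to 0.41), and ITGB4, with 0.26 (0.23 to 0.30). ITGB5 had -0.021 (-0.062 to 0.02) and ITGB6 had -0.016 (-0.17 to 0.14).

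In HCT116, where 9 of the 10 were measured, the largest value was that of ITGA1, which had 46 counts in the control and 17 with LPS, a log2 ratio of -1.21 (95% counting interval -2.20 to -0.48). It was the 1 gene of the 9 beyond 0.58, in a line where 5.9% of 14337 genes lay beyond it, 2.34% below -0.58 and 3.56% above 0.58. Counting intervals lay above 0 for 2 of the 9 and below 0 for 2, against 17.0% and 18.2% of all genes. ITGA5 had a log2 ratio of 0.18 (0.09 to 0.26) and ITGB4 one of 0.13 (0.094 to 0.16). ITGAV had -0.15 (-0.25 to -0.058). The median of the 9 was 0.033, beside -0.0025 over all genes. Within a line there is 1 library a condition, so these intervals cover counting error only and no difference between cultures was tested.

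Across both lines, the shared LPS test, with the line as a block and 1 residual degree of freedom, called none of the 10 by edgeR, against 0.22% of all genes, and DESeq2 called none, against 0.558%. At an unadjusted p under 0.05 edgeR had 2 of the 10, against 7.58% of all genes, namely ITGA2 with a log2 fold change of 0.21 (SE 0.075, adjusted p = 0.428) and ITGB4 with 0.20 (SE 0.07, adjusted p = 0.435). Both genes had positive log2 ratios in both lines, but that of ITGA2 in HCT116 was 0.092 with a counting interval that included 0 (-0.015 to 0.2). The shared test picks genes that move alike in both lines, so the common direction is no further support. ITGA1 and ITGAV had counting intervals on opposite sides of 0 in the lines, as had 4.45% of the 12085 genes measured in both. The log2 ratios of all genes rose weakly with length in HT29 (rho 0.167, 13201 genes), and in HCT116 with the share of G and C (rho 0.229, 14337 genes), a description across genes of the same libraries. With these trends removed, the values for HT29 and then HCT116 were 0.21 and 0.05 for ITGB4, -0.02 and -0.03 for ITGA3, and 0.15 and -1.15 for ITGA1.

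**Figure D3:**
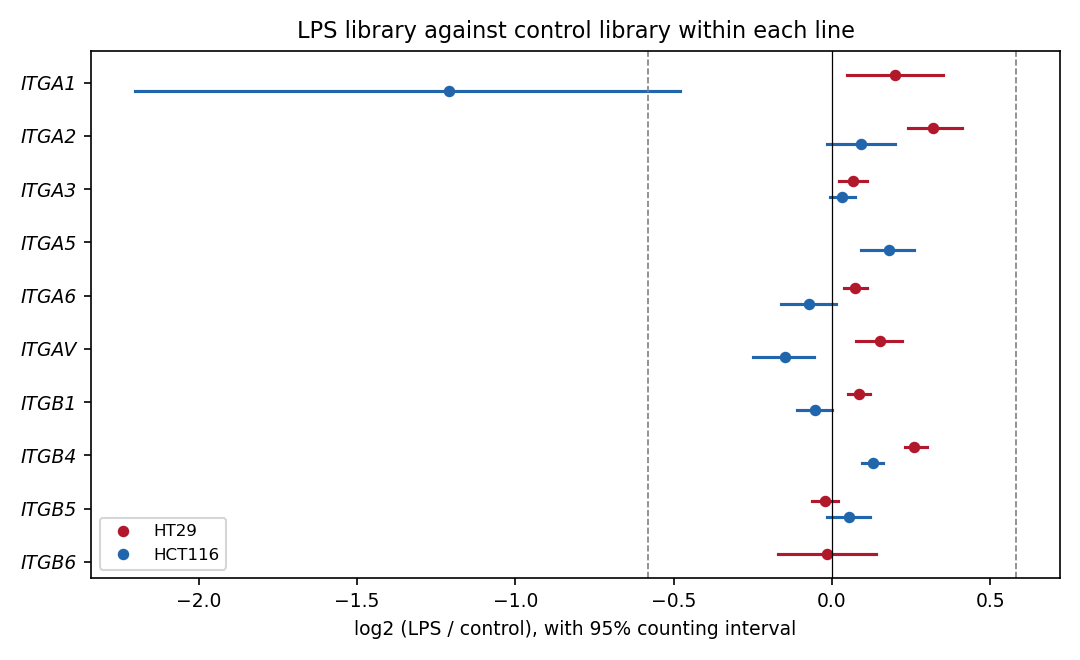
LPS against control on the log2 scale for each subunit, red for HT29 and blue for HCT116, bars marking 95% counting intervals and dashed lines at 0.58 on either side of 0. ITGA5 in HT29 and ITGB6 in HCT116 were too low to be measured; ITGA1 in HCT116 alone lies beyond a dashed line.

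The matrix ligands of these receptors also differed between the lines. Of 30 ligands listed, 23 passed the filter, and 13 were higher and 10 lower in HCT116 (38.6% and 38.0% of all genes), with a median log2 fold change of 0.20 (0.016 over all genes). The 4 most abundant per length were AGRN, a basement membrane proteoglycan (56345 and 66528 counts in HT29, 9860 and 9390 in HCT116, log2 fold change -2.86), LAMA5, the alpha chain of laminin-511 (0.20), LAMB3, the beta chain of laminin-332 (-1.81), and TGFB1 (450 and 605 against 2426 and 2426 counts, 2.02). Named after their values were seen, LAMA3, the alpha chain of laminin-332, was also lower in HCT116 (log2 fold change -2.16). So was TNC, a tenascin that ITGAV receptors bind (968 and 1274 counts in HT29, 4 and 4 in HCT116, log2 fold change -8.26, SE 0.22), while fibronectin, FN1, was higher (43 and 74 counts in HT29, 585 and 583 in HCT116, 3.15, SE 0.19). Picked in the same way, the laminin chains LAMC3 (0 and 1 counts in HT29, 749 and 702 in HCT116) and LAMB2 (2.81) were higher. Of the collagens, COL4A5 (0 and 0 counts in HT29, 931 and 790 in HCT116) and COL1A1 (4.72) were higher and COL4A2 (-4.13) was lower.

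Of 13 genes of hemidesmosomes and of membrane proteins that associate with integrins, 9 were lower in HCT116, 1 was higher and 3 were not called, beside 38.0% lower and 38.6% higher over all genes, with a median log2 fold change of -0.86. CD151, a tetraspanin that binds laminin receptors, had a log2 fold change of -1.59, CD63, another tetraspanin, -1.58, BSG -0.16 (adjusted p = 0.0546) and PLEC, the plakin that links ITGB4 to keratin, 0.16 (adjusted p = 0.104). COL17A1, a transmembrane collagen of hemidesmosomes named after its values were seen, had 3168 and 3717 counts in HT29 against 184 and 217 in HCT116 (-4.29, SE 0.091). DST, the 1 gene called as higher and also named after its values were seen, had 2332 and 2917 counts in HT29. In HCT116 it had 5009 and 4285 (log2 fold change 0.63, SE 0.072). The log2 ratio of PLEC was 0.3 between the control libraries (counting interval 0.28 to 0.32). Between the LPS libraries it was 0.015 (-0.0044 to 0.035). HCT116 thus held COL17A1 at far lower counts and DST at higher counts, while ITGB4 and PLEC were not called.

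Of 32 proteins that bind integrin tails or build adhesion complexes, 31 passed the filter, 11 were higher and 14 lower in HCT116 and 6 were not called (median -0.29), beside 38.6% higher and 38.0% lower over all genes. The most abundant were ACTN4 (-0.92), FLNA (-0.33), ZYX (-0.13, adjusted p = 0.067) and TNS4 (-2.71). Named after their values were seen, the kindlins FERMT1 and FERMT2, which bind beta tails to activate integrins, lay in opposite directions. FERMT1 had 3694 and 4014 counts in HT29 against 1182 and 1176 in HCT116 (-1.90), and FERMT2 had 2 and 1 counts in HT29 against 767 and 697 in HCT116 (log2 ratio 7.34 between the controls, 95% counting interval 6.4 to 11.3). The kindlin FERMT3, also named with its values in view, had 97 and 82 counts in HT29 against 79 and 81 in HCT116 and was not called (-0.35, edgeR adjusted p = 0.281).

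Of the other 16 integrin subunits, 7 passed the filter, with 4 higher and 2 lower in HCT116 and 1 not called, beside the same shares of all genes. The most abundant were ITGAE (log2 fold change 0.23, adjusted p = 0.177), ITGA7, a laminin receptor subunit (37 and 53 counts in HT29, 849 and 762 in HCT116, 3.97), ITGB8, a partner of ITGAV (-1.34), and ITGB7, the partner of ITGAE (-4.00). The shared LPS test by edgeR called none of the genes of these 4 lists, and DESeq2 called 1, ACTN4, with a log2 ratio of 0.17 in HT29 and 0.20 in HCT116. At an unadjusted p under 0.05 edgeR had 0 of the other subunits, 1 of the ligands, 3 of the adhesion complex genes and 0 of the hemidesmosome list, against 7.58% of all genes. Picked with their values in view as those beyond 0.58 within a line were FN1 (0.62) and COL1A1 (-0.58) in HT29, and ITGA9 (-0.80), LAMA4 (-1.06) and SPP1 (-0.65) in HCT116.

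**Figure D4:**
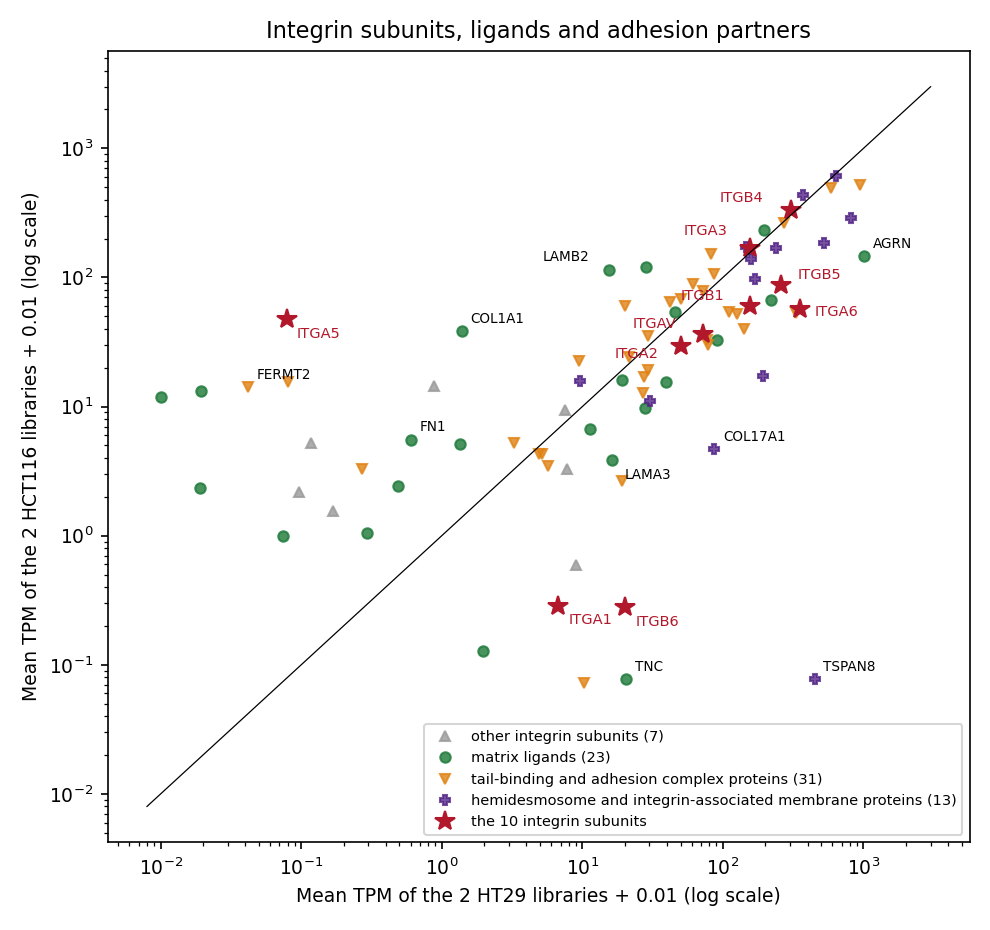
Mean level of each gene in the 2 HCT116 libraries against that in the 2 HT29 libraries (TPM plus 0.01, log axes) for the 10 integrin subunits (stars) and the tested genes of 4 lists of ligands and partners, with a line at equal levels and some list genes labelled after their values were seen. ITGA5 lies far above the line near FERMT2, and ITGA1 and ITGB6 far below it.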

How the data were processed

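The authors trimmed the reads (the submitters' processing notes name cutadapt 1.9 and Trimmomatic 0.39), used HISAT2 2.1.0 for alignment to hg38 and featureCounts 2.0.1 for counting. The values the authors deposited are raw counts per gene for 4 libraries, with another column, the exon length. For the annotation release, strand and multiply mapped reads the settings were not given in the sources used here. Reads of overlapping and near-identical genes therefore cannot be told apart. Of the gene identifiers, 93.1% carry the version of GENCODE 44, which gave the positions. Symbols were found for 61445 of 61544 genes.

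Counts were scaled by TMM in edgeR 4.0.16 (R 4.3.3, limma 3.58.1), and a gene was kept at a mean of 1 CPM or more. The lines were compared by edgeR's quasi-likelihood test over all 4 libraries, with LPS as a block, and LPS was tested with the line as a block. Both leave 1 residual degree of freedom, which is the departure of the 4 libraries from additive effects of line and LPS. The SEs and p-values rest on that residual, moderated by a dispersion estimated across genes. They do not measure the spread between repeat cultures, which was not available. Each SE was derived from the test, as the size of the log2 fold change over the square root of the F statistic. For genes with few counts it can be smaller than the counting error. Log2 ratios between single libraries used a prior count of 2, a size threshold of 0.58 and exact 95% Clopper-Pearson intervals. Intervals and floors cover counting error only. For a library at 0, 3 counts served as the floor. Copies of each transcript were sought with minimap2 2.31. Alternatives comprised library size alone, DESeq2 1.42.0 and its size factors, other prior counts and filters, no block, longest-transcript TPM and removal of length and GC trends.

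The members, gene lists and tests were chosen with earlier results of these data known. The text names all 10 subunits, the 4 genes of each list with the highest mean TPM, and genes that overlap or copy a subunit. For any other gene the text states that it was picked with its values in view.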

Additional observations from a re-analysis of the deposited data

Results flagged for a closer look

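For 2 subunits the counting intervals of the LPS log2 ratio lay on opposite sides of 0 in the lines, as they did for 4.45% of the 12085 genes measured in both. ITGA1, a collagen receptor subunit, had a log2 ratio of 0.20 in HT29 (626 counts in the control, 792 with LPS) and -1.21 in HCT116 (46 and 17 counts). ITGAV, the vitronectin receptor subunit, had 0.15 in HT29 (3039 and 3704 counts) and -0.15 in HCT116 (2023 and 1666 counts). With 1 library a condition, the difference between the lines in these ratios was not tested.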

How the results depend on the processing

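The 8 calls between the lines were made under DESeq2, DESeq2 size factors, no filter, a minimum of 5 CPM and no block, and library size alone gave 10, adding ITGA3 and ITGB4. The shared LPS test called 0 of the 10 under every alternative run. Between the control libraries alone 6 of the 10 differences moved by more than the SE of the fit, and between the LPS libraries 4. The single-library ratios used a prior count of 2, which shrinks ratios at few counts. For ITGB6 they were -5.91 and -6.16, both smaller in size than the fit (-6.29), so its move need not come from the choice of libraries. Removing the length and GC trends moved 6 of 18 LPS ratios out of their counting intervals. With the counts of ITGB1P1 added, chosen after the data were seen, the LPS log2 ratio of ITGB1 was 0.08 in HT29 and -0.07 in HCT116 (95% counting interval -0.12 to -0.021), where it was -0.05 with an interval that reached 0. No paired analysis was possible because each condition had 1 library, so that the groups share no more than 1 replicate number (the shared LPS test already has the line as a block). Depth limits ITGA5 in HT29 and ITGA1 and ITGB6 in HCT116, whose values rest on at most 46 counts a library.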

Other observations

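Integrins cycle between the surface and endosomes, and 17 of 18 genes of that traffic passed the filter. Of these, 9 were lower in HCT116, 5 were higher and 3 were not called, beside 38.0% lower and 38.6% higher over all genes, with a median log2 fold change of -0.19. The most abundant were RAB25, an epithelial Rab of integrin recycling (2310 and 2306 counts in HT29, 1059 and 1030 in HCT116, log2 fold change -1.34), ARF6 (0.05, edgeR adjusted p = 0.496), RAB7A (-0.86) and RAB11A (-1.09). The shared LPS test by edgeR and DESeq2 called none of the 17, with 4 at an unadjusted p under 0.05 by edgeR (7.58% of all genes), and none lay beyond 0.58 in either line.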
